A study of Macaca mulatta with 24 samples.

Results

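The broad unmethylated regions of visceral white adipose tissue (WAT) were described here as stretches of the rhesus macaque genome where at least 3 neighbouring 1 kb windows each held at least 3 measured CpGs and each averaged under 10% methylation over all 24 animals. Chromosomes 1 to 20 held 834 such regions, built from 2729 windows and 38640 of the 841143 CpGs in the data. They took 2.71% of the 100864 windows with at least 3 CpGs in all the data, including windows outside chromosomes 1 to 20. Of the 19899 windows on chromosomes 1 to 20 that were unmethylated by the same limit, they took 13.7%. The regions were chosen by their measured methylation level, so their low level is a description and not a finding. The 4 groups were not used in the choice.

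The assay was RRBS, reduced-representation bisulfite sequencing, which cuts genomic DNA with the enzyme MspI at CCGG and reads the CpGs near the cuts, so it samples CpG-rich sequence and leaves gaps elsewhere. The DNA came from omental biopsies of 24 female rhesus macaques taken in year 3 of treatment. The labels give the animals as 4 years old, whereas the study's methods give a greater age at biopsy. Control animals (C, numbers 1 to 6) carried cholesterol implants and ate monkey chow. T animals (13 to 18) carried testosterone implants and ate chow, WSD animals (19 to 24) carried cholesterol implants and ate a high-fat western-style diet, and T+WSD animals (7 to 12) received both testosterone and the diet. All 6 animals of each group were analysed, and per the study's methods they had been chosen as representative of a larger cohort. The biopsies were whole tissue, which holds adipocytes, stromal, vascular and immune cells, so a change in the mix of cells and a change within a cell cannot be told apart. Numbers 1 to 12 cover C and T+WSD while 13 to 24 cover T and WSD. Any difference between the 2 number series therefore cannot be told apart from T against C or WSD against C. The interaction of testosterone and diet sets C and T+WSD against T and WSD, so for every region and CpG it is the same contrast as that between the 2 number series. Per the study's methods, CpGs were kept if they reached a minimum coverage in most animals of each group. Each value is a percentage per CpG, without the number of reads behind it, so the exact depth behind a value is unknown.

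In most vertebrate tissues the CpGs of the genome are largely methylated, and CpG islands at promoters are the common exception, usually over a short stretch. Unmethylated stretches that run on for several kilobases, called DNA methylation valleys or canyons, are known to lie often at genes of transcription factors and other developmental regulators, where Polycomb or TET proteins help to keep methylation out. Gain of methylation in such stretches is known from ageing, from tumours and from differences between cell types. The positions below are in the rheMac8 build. No annotation of that build was used here, so the regions are named by position and no gene is assigned.

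Of the 834 regions, 670 spanned 3 kb, 119 spanned 4 kb, 31 spanned 5 kb, 10 spanned 6 kb and 4 spanned 7 kb. A region held a median of 43 CpGs, with 11 at the fewest and 185 at the most. A window inside a region held a median of 11 CpGs, as did a window in the narrow unmethylated runs of 1 or 2 windows. The extent of a region is also a matter of what RRBS could see: of the 1668 windows directly beside the regions, 1361 held no CpG at all, 135 held 1 or 2 and 172 held 3 or more. The last had a median level of 26.2%, and 53 of them were at 50% or above. Only 16 regions were bounded on both sides by a measured window, while 678 were bounded by none, so most lengths are the length of the measured stretch.

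The regions were spread over all 20 numbered chromosomes. Chromosome 1 held 78, chromosome 16 held 62, chromosome 7 held 61 and chromosome 19 held 55, while chromosome 18 held 21. As a share of each chromosome's unmethylated windows, broad regions took 24.1% on chromosome 17 and 21.5% on chromosome 18 but 8.88% on chromosome 20. The median gap between neighbouring regions was 1556 kb. Some lay close together all the same: 40 groups of regions with gaps of at most 50 kb held 87 of the 834. Among them, 3 regions between 7433001 and 7483000 of chromosome 17 held 13 windows and 209 CpGs with a mean level of 4.39%, and 3 regions between 179950001 and 179986000 of chromosome 6 held 11 windows and 167 CpGs at 1.26%.

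The 4 longest regions were chr9:7335001-7342000 with 155 CpGs, chr19:25275001-25282000 with 137, chr15:8002001-8009000 with 106 and chr11:106472001-106479000 with 57. The chromosome 9 region lay at 1.40% over all animals. Its lowest, median and highest animals were at 0.857%, 1.44% and 1.69% for C, 0.771%, 1.27% and 1.55% for T, 0.977%, 1.2% and 2.56% for WSD, and 1.28%, 1.52% and 2.08% for T+WSD, so the groups overlapped. The region on chromosome 15 lay at 3.64% and that on chromosome 11 at 3.10%, and in both the 4 groups also overlapped. The chromosome 19 region lay at 3.52% with T 13 at 11.6% and T+WSD 8 at 7.37%, whereas the remaining 22 animals lay between 1.96% and 5.75%. Among the regions of 6 kb, chr10:53500001-53506000 held 185 CpGs and showed a sharper split: C 1 was at 6.97%, T 13 at 6.55%, WSD 20 at 8.69% and T+WSD 8 at 9.62%, and no other animal exceeded 3.52%.

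Within the regions methylation was close to absent. The mean level of a region ran from 0.371% to 8.73% with a median of 1.82%, and 61.5% of all CpG values in the regions were exactly 0, against 23.3% over all CpGs. Values were missing for 3.05% of the measurements in the regions and 4.55% of all. The region with the highest level was chr1:39069001-39072000, where the 29 CpGs averaged 7.05% ± 1.69 for C, 7.45% ± 1.05 for T, 10.4% ± 3.33 for WSD and 10.1% ± 2.37 for T+WSD (SD, n = 6). The lowest was chr4:43029001-43032000, whose 46 CpGs averaged 0.450% ± 0.351, 0.404% ± 0.157, 0.339% ± 0.121 and 0.291% ± 0.25 in the same order. The rule also named chr3:10040001-10043000 among the highest, at 7.99% ± 1.46, 8.28% ± 2.77, 8.58% ± 0.601 and 8.11% ± 2.51, and chr3:127246001-127249000 among the lowest, at 0.540% ± 0.417, 0.240% ± 0.191, 0.309% ± 0.230 and 0.445% ± 0.318 (SD, n = 6). At the limit of 10%, the highest windows inside a region were at 9.94%, 9.92% and 9.90%. Just outside it, 18 runs of 3 or more windows met the rule only with a limit of 11%, the nearest 3 of them kept out by a window at 10.1%.

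Single CpGs in the regions could still be methylated. Of the 38640, 228 averaged 20% or more, in 131 regions, and 4 averaged 50% or more. CpGs at 44547204 and 44547210 of chromosome 19 averaged 70.7% and 55.5% inside a region at 5.34%, and the first ran from 38.5% to 100% between animals. The others were 38662263 of chromosome 7 at 55.1% and 93787113 of chromosome 2 at 51.1%.

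Methylation changed over a short distance at the region boundaries, by construction of the rule. In the 0.25 kb just inside a boundary the CpGs averaged 3.85% for C, 3.71% for T, 4.07% for WSD and 3.89% for T+WSD. Between 1.25 and 1.5 kb inside they averaged 1.85%, 1.87%, 2.20% and 1.98%. In the 0.25 kb just outside they averaged 20.8%, 19.6%, 20.7% and 20.4%, and between 0.75 and 1 kb outside 45.8%, 45.6%, 45.9% and 46.0%, the highest class within 5 kb. From 1 kb to 5 kb outside, the group means per class lay between 24.2% and 35%. In every class of 0.25 kb the group means lay within 2.05 points of each other. The edge windows of the regions had a median level of 1.76% and the inner windows 1.39%.

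**Figure D1:**
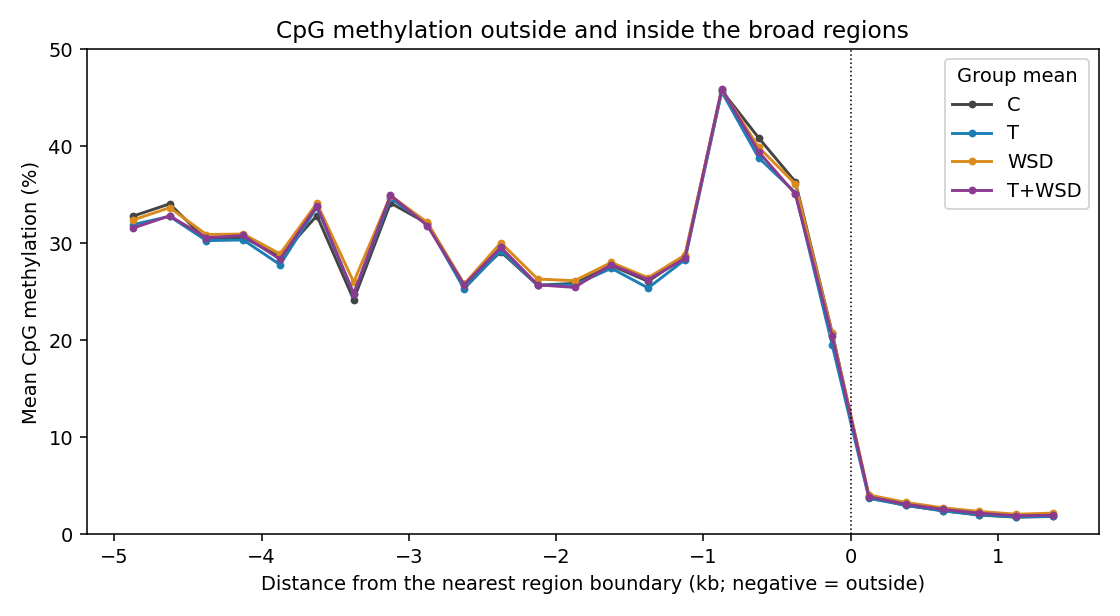
Mean methylation (%) of CpGs by distance (kb) from the nearest region boundary, outside at negative and inside at positive distances, with 1 line per group of 6 animals and 1 point per 0.25 kb. All 4 lines fall from between 45.6% and 46.0% in the class 0.75 to 1 kb outside to under 5% inside. Farther out, from 1 to 5 kb, they lie between 24.2% and 35%, and the lines of the groups lie close together throughout.

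Before the groups are compared, 4 animals need to be named, because they had the highest levels of their own groups. They were C 1, T 13, WSD 20 and T+WSD 8, 1 in each group. Their mean levels over the 834 regions were 2.57%, 2.90%, 3.15% and 3.15%, and each was the highest of its group. The mean levels of the other animals ran from 2.07% to 2.12% for C, from 1.92% to 2.20% for T, from 2.16% to 2.58% for WSD and from 1.99% to 2.43% for T+WSD. In the narrow runs the same 4 were also the highest of their groups, at 2.32%, 2.58%, 2.79% and 2.88%, where the others ran from 1.90% to 2.53%. The 4 animals were noticed from the values of the broad regions and are not a group of the study. Comparisons are therefore given with all animals and, where this moves a result, without these 4.

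Over the broad regions the group means were highest for WSD and lowest for C. Group means were 2.17% ± 0.199 for C, 2.18% ± 0.366 for T, 2.48% ± 0.372 for WSD and 2.31% ± 0.435 for T+WSD (SD, n = 6 each). With all animals WSD lay above C by less than 1 SD of the WSD animals, and the ranges of the groups overlapped. Without the 4 animals named above (n = 5) the means were 2.08% ± 0.0243, 2.04% ± 0.110, 2.35% ± 0.201 and 2.15% ± 0.164. C animals then ran from 2.07% to 2.12% and WSD animals from 2.16% to 2.58%, so that these groups no longer overlapped and WSD lay above C by more than 1 SD. These animals were left out for their high values, so this is a description. In the narrow runs the group means were 2.12%, 2.11%, 2.37% and 2.26%, in the same range. By each animal's median over the broad regions, the group means were 1.57% ± 0.119 for C and 1.59% ± 0.208 for T. They were 1.85% ± 0.195 for WSD and 1.76% ± 0.287 for T+WSD (SD, n = 6). By this measure WSD lay above C by more than 1 SD of the WSD animals. The C and WSD ranges still overlapped, at 1.48% to 1.80% and 1.65% to 2.16%. The level of all these regions together is a score over chosen members and was not tested.

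**Figure D2:**
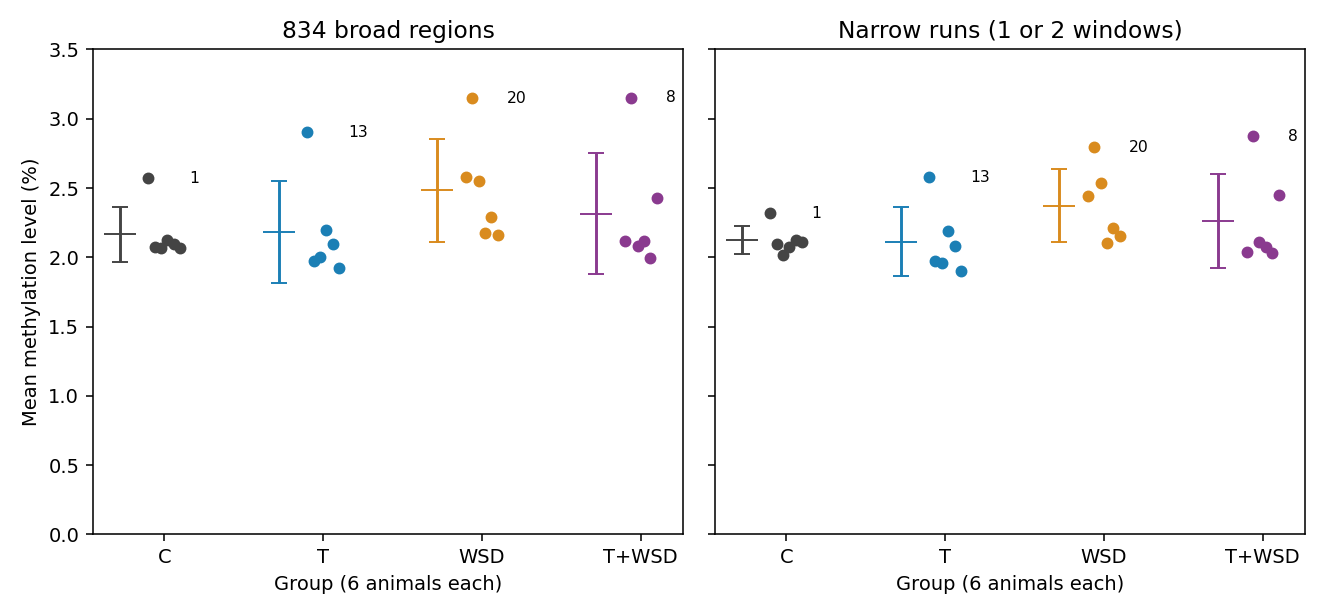
Mean methylation level (%) of each animal over the 834 broad regions (left) and over the narrow unmethylated runs (right), by group. Points are animals, bars the group mean ± SD (n = 6), and the numbers mark the highest animal of each group on the left. C 1, T 13, WSD 20 and T+WSD 8 lie at 2.57%, 2.90%, 3.15% and 3.15% in the broad regions.

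The first comparison asked whether testosterone alone went with a different methylation of the regions. No region passed limma's moderated test at an adjusted p of 0.05 in T against C, where 0.00909% of the 98969 features fitted together did (the regions and all other 1 kb windows with at least 3 CpGs). At an unadjusted p of 0.05, 9 regions or 1.08% passed, against a background of 6.77%. The region shares at this limit, here and in the tests below, were under what no difference at all would give on average. The fit used a single prior variance for all features, and its effect on features near 0 was not tested. A share below the background is therefore no result about the regions. The smallest adjusted p among the regions was 0.645. T was higher in 405 regions (48.6%) and lower in 429, while 40.6% of all features were higher. The median difference was −0.0142 points, against −0.367 points over all features. Its sign changed when some single animals were left out (below). Centring each animal on its median moved it to 0.485 points, but centring shifts all features of an animal together (below).

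Among the T regions with the smallest p values, chr13:45679001-45682000 (24 CpGs) had a lowest, median and highest animal of 1.06%, 1.51% and 2.75% in C and of 2.46%, 2.90% and 4.68% in T. All but 1 of the C animals lay below every T animal. The difference was 1.57 points (limma adjusted p = 0.645). In chr4:38785001-38788000 (44 CpGs) the corresponding values were 1.13%, 2.78% and 3.62% in C and 0.844%, 1.38% and 1.72% in T, so that every C animal but C 2 lay above the T animals (limma adjusted p = 0.657). The other pair named by the same rule were chr11:133007001-133010000 at 2.31% ± 0.616 in C and 3.69% ± 1.04 in T, and chr15:49676001-49679000 at 8.79% ± 2.95 and 6.07% ± 1.36 (SD, n = 6; limma adjusted p = 0.711 and 0.691).

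No overlap between the 6 T and the 6 C animals was seen in 2 regions, both lower in T (0.24%, against 0.418% of all features), and in 0 regions that were higher in T (background 0.118%). In chr13:38534001-38538000 (71 CpGs) C animals ran from 2.27% to 3.35% and T animals from 1.16% to 2.04%. In chr14:8576001-8581000 (96 CpGs) C animals ran from 0.876% to 1.15% and T animals from 0.660% to 0.841%, a gap of a fraction of a point. Neither passed the test (limma adjusted p = 0.699 and 0.924).

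The second comparison asked the same of the diet alone. Again no region passed at an adjusted p of 0.05 in WSD against C (background 0.00404%), and 23 regions or 2.76% did at an unadjusted p of 0.05 (background 7.48%). The smallest adjusted p was 0.332. WSD was higher in 585 regions and lower in 249. The median difference over the regions was 0.219 points, against −0.157 points over all features, of which 46.0% were higher in WSD. With animals centred as above it was 0.549 points, and 91.7% of the regions were higher. In the narrow windows 58.8% were higher, with a median difference of 0.119 points. Differences over 1 point in either direction were found in 121 regions for WSD, 71 for T and 74 for T+WSD. No count over all features is given beside these, so they are a description. The 3 comparisons share the C animals, so their directions are not independent of each other.

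The region with the smallest p for WSD was chr16:18349001-18352000 (63 CpGs). Its WSD animals were at 3.24%, 2.78%, 1.37%, 1.17%, 2.16% and 3.15%. C animals were at 0.765%, 0.462%, 0.701%, 1.03%, 0.590% and 1.12%. T animals lay between 0.182% and 0.847% and T+WSD animals between 0.430% and 0.828%. Every WSD animal was above every animal of the other 3 groups. The difference from C was 1.53 points (limma adjusted p = 0.332), and no difference at the level of the region was called. The region holds a short stretch of CpGs with a larger difference, described with the called CpGs below.

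The other patterns of this comparison were smaller or rested on some of the animals. In chr7:81917001-81921000 (19 CpGs) WSD animals were at 6.84%, 4.58%, 4.07%, 0.672%, 0.962% and 5.53%, so that 4 were above every C animal and 2 were not. C animals there had a lowest, median and highest of 0.421%, 0.637% and 3.18% (limma adjusted p = 0.465). In chr18:22885001-22888000 (19 CpGs) the WSD animals were the lower ones, at 0.454%, 0.727% and 1.04%, against 1.12%, 1.84% and 2.56% in C. The groups did not overlap there (limma adjusted p = 0.510). In chr19:50781001-50784000 (25 CpGs) WSD animals ran from 0.0% to 1.15% and C animals from 0.535% to 2.11% (limma adjusted p = 0.591).

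Altogether WSD and C did not overlap in 3 regions that were higher in WSD (0.36%, background 0.192%) and in 1 that was lower (0.12%, background 0.375%). Besides the regions on chromosomes 16 and 18 these were chr4:69026001-69029000, at 0.604% ± 0.0975 in C and 1.25% ± 0.555 in WSD, and chr5:132724001-132727000, at 2.14% ± 0.25 and 3.64% ± 1.40 (SD, n = 6; limma adjusted p = 0.707 and 0.638).

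The third comparison concerned the combined treatment, the only one within 1 number series. No region passed in T+WSD against C at an adjusted p of 0.05, where 221 of all features or 0.223% did. This count over all features rested on single animals and ran from 10 without C 1 to 346 without C 2. At an unadjusted p of 0.05, 21 regions or 2.52% passed, against 11% of all features. T+WSD was higher in 536 regions and lower in 298, while 41.0% of all features were higher. The median difference over the regions was 0.147 points, against −0.41 points over all features. With animals centred as above it was 0.669 points, and 94.5% of the regions were higher. In the narrow windows 58.1% were higher, with a median difference of 0.103 points. The median difference over the 834 broad regions rested in part on T+WSD 8 and was 0.02 points without that animal. Without all 4 of the animals that stood apart it was 0.0639 points, and 475 of the 834 regions were higher.

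In chr5:173700001-173703000 (18 CpGs) T+WSD animals were at 9.70%, 12%, 15.2%, 7.32%, 9.47% and 7.54% and C animals at 2.21%, 6.24%, 6.41%, 4.78%, 3.56% and 9.03%. Only C 6 reached into the range of T+WSD, and the means were 10.2% ± 2.96 and 5.37% ± 2.40 (SD, n = 6; limma adjusted p = 0.226). In chr20:666001-669000 (37 CpGs) the lowest, median and highest animals were at 1.80%, 2.0% and 3.69% in T+WSD and 0.331%, 1.02% and 1.57% in C, without overlap (limma adjusted p = 0.262). In the direction of loss, chr15:49676001-49679000 (57 CpGs) lay at 4.74%, 5.36% and 5.87% in T+WSD and at 5.85%, 8.50% and 13.9% in C. This region had the smallest adjusted p of the 834 in the comparison (limma adjusted p = 0.220), and its values overlapped only at C 2. The region chr10:73223001-73226000 (43 CpGs) averaged 4.02% ± 2.04 in C and 1.44% ± 0.589 in T+WSD (SD, n = 6; limma adjusted p = 0.319).

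T+WSD and C did not overlap in 5 regions that were higher in T+WSD (0.6%, background 0.353%) and 1 that was lower (0.12%, background 1.02%). The 5 were the chromosome 20 region above, chr14:4917001-4921000 at 2.84% ± 0.386 in C and 4.38% ± 0.670 in T+WSD, chr18:3933001-3936000 at 0.502% ± 0.153 and 1.31% ± 0.809, chr5:152845001-152848000 at 1.46% ± 0.212 and 2.54% ± 0.831, and chr6:1695001-1698000 at 3.29% ± 0.448 and 4.63% ± 1.72 (SD, n = 6). The lower one was chr1:686001-690000 (33 CpGs), with T+WSD animals from 1.83% to 2.61% and C animals from 2.66% to 5.75% (limma adjusted p = 0.403). When only CpGs with a value in all 24 animals were used, 8 CpGs were left in this region. It then averaged 11.1% in C and 5.0% in T+WSD and was the 1 region called in any setting tried (limma adjusted p = 0.0315). In that setting 499 of all features were called, against 221 with all CpGs.

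**Figure D3:**
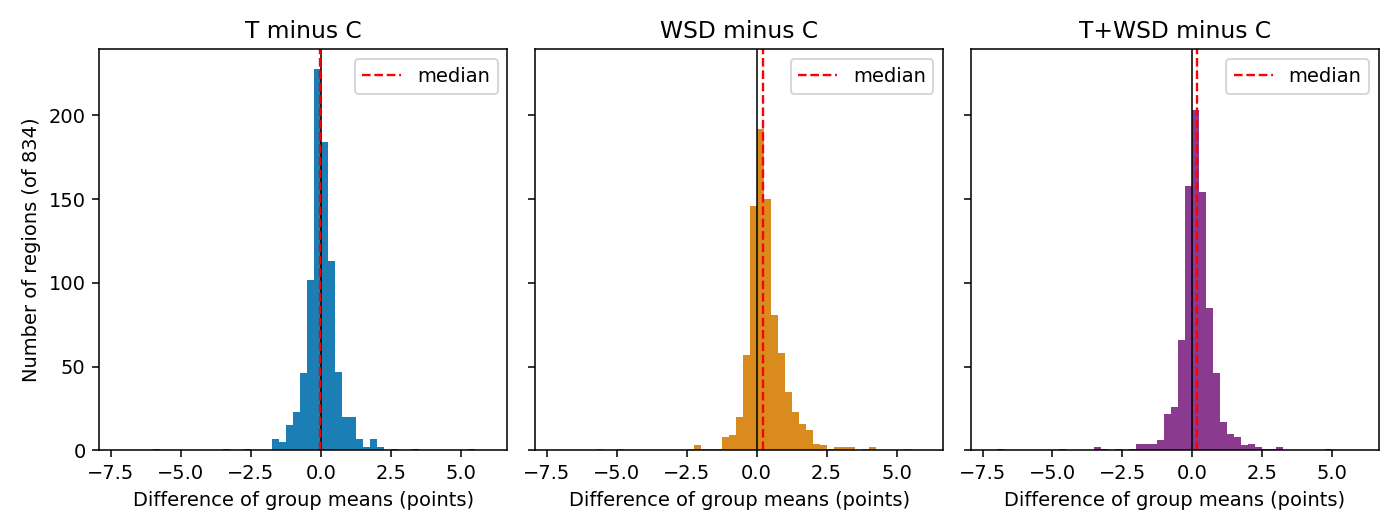
Difference in mean methylation (percentage points) between each treated group and C for the 834 broad regions, in classes of 0.25 points, with the median as a dashed line (n = 6 animals per group). The medians are −0.0142 points for T, 0.219 points for WSD and 0.147 points for T+WSD, and most regions lie within 1 point of 0.

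The interaction of testosterone and diet asks whether the combined treatment differed from the sum of both single ones, and cannot be told apart from the number series (above). No region passed (background 0.0182%), 10 regions or 1.2% had an unadjusted p under 0.05 (background 5.62%), and the smallest adjusted p was 0.837. A test of any difference among the 4 groups likewise called no region (background 0.0192%), with 13 regions or 1.56% at an unadjusted p under 0.05 (background 9.36%) and a smallest adjusted p of 0.171. In chr9:93552001-93555000 (33 CpGs) the means were 1.97% ± 1.34 for C, 1.37% ± 1.19 for T, 1.77% ± 0.411 for WSD and 4.12% ± 1.45 for T+WSD (SD, n = 6; limma adjusted p = 0.837). In chr2:146888001-146891000 (40 CpGs) the WSD mean of 5.69% ± 2.27 included WSD 21 at 10.2%, and the other means were 3.43% ± 0.886 in C, 3.98% ± 0.954 in T and 3.28% ± 0.724 in T+WSD (limma adjusted p = 0.849). The regions on chromosomes 16 and 18 described for WSD were also named here, with limma adjusted p = 0.840 and 0.838. With a prior variance that follows the mean level, limma also called 0 regions in each of these 5 tests, and 3, 2, 61, 13 and 10 of all features for T, WSD, T+WSD, the interaction and any difference.

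At single CpGs the same test was run over all 841143. Inside the broad regions it called 0 CpGs for T (background 0.00594%), 1 for WSD (background 0.00618%), 3 for T+WSD (background 0.00761%) and 2 for the interaction (background 0.0181%). All 4 counts moved when single animals were left out (below). The T+WSD background of 64 CpGs ran from 5 without C 1 to 94 without C 2. At an unadjusted p under 0.05, 1450 CpGs of the regions or 3.75% passed for T, against 5.58% of all CpGs. These few CpGs were chosen after their values were seen, as the ones that passed. The number of reads behind their values is unknown, so a low value may rest on few methylated reads. At the called CpGs of chromosomes 16, 13 and 15 every measured C animal was at exactly 0, so C had no spread there.

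The CpG called for WSD was 18349990 of chromosome 16, inside the region separated by WSD above. It was at 28.0%, 25.7%, 7.69%, 3.33%, 7.89% and 7.41% in the WSD animals. All 12 C and T animals were at 0, and of the T+WSD animals only T+WSD 9 had a value above 0, at 3.70%. The mean was 13.3% ± 10.6 in WSD (SD, n = 6; limma adjusted p = 0.013). The 5 other CpGs within 100 bp averaged 11.4 points higher in WSD than in C. The whole region of 63 CpGs, which includes them, differed by 1.53 points, so the region and this CpG are not separate results. This call was lost without transformation (limma adjusted p = 0.366), when WSD and C were fitted without the other groups (limma adjusted p = 0.239), and without the 4 animals that stood apart (limma adjusted p = 0.121).

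The call with the smallest adjusted p for T+WSD was 75459080 of chromosome 13, in chr13:75458001-75461000. Only 4 T+WSD animals had a value, at 7.14%, 7.69%, 6.67% and 18.2%, while all 16 measured animals of the other groups were at 0. The adjusted p values below therefore rest on a few low values against groups without any spread. The same CpG was called for the interaction, by 9.92 points (limma adjusted p = 0.00162 and 0.00121). The 5 CpGs within 100 bp averaged 6.43 points higher in T+WSD than in C, and their interaction averaged 2.59 points. Without transformation the adjusted p by limma was 0.0765 for T+WSD and 0.415 for the interaction, and with only C and T+WSD in the fit it was 0.159.

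The CpG at 94260884 of chromosome 15 was 0 in all C animals and at 4.76%, 2.63%, 5.26%, 3.57%, 12% and 5.88% in T+WSD (limma adjusted p = 0.0217). T animals ran from 1.2% to 4.63%, overlapping T+WSD, and WSD animals from 0 to 3.09%. Its 4 neighbours within 100 bp differed by 0.389 points on average. The CpG at 181304063 of chromosome 2 had a mean of 11% ± 2.56 in 5 T+WSD animals and 0.477% ± 1.17 in the 6 C animals (limma adjusted p = 0.0435), and its 6 neighbours were lower in T+WSD by 0.583 points. The chromosome 15 call was lost without C 1, without C 3 and without transformation (limma adjusted p = 0.0926). The chromosome 2 call was lost without any 1 of 16 animals, on the log2 ratio scale (limma adjusted p = 0.069), with only C and T+WSD in the fit (0.0558) and without the 4 animals that stood apart (0.176).

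The second CpG of the interaction, 13674995 of chromosome 3, was low in both single treatments. It averaged 2.50% ± 1.27 for C, 0.288% ± 0.269 for T, 0.370% ± 0.630 for WSD and 2.69% ± 1.40 for T+WSD (SD, n = 6; limma adjusted p = 0.0138). The call was lost without transformation (limma adjusted p = 0.142). As for every interaction here, this is also the pattern of animals 1 to 12 against 13 to 24. Its 5 neighbours within 100 bp had an interaction of −1.0 points.

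**Figure D4:**
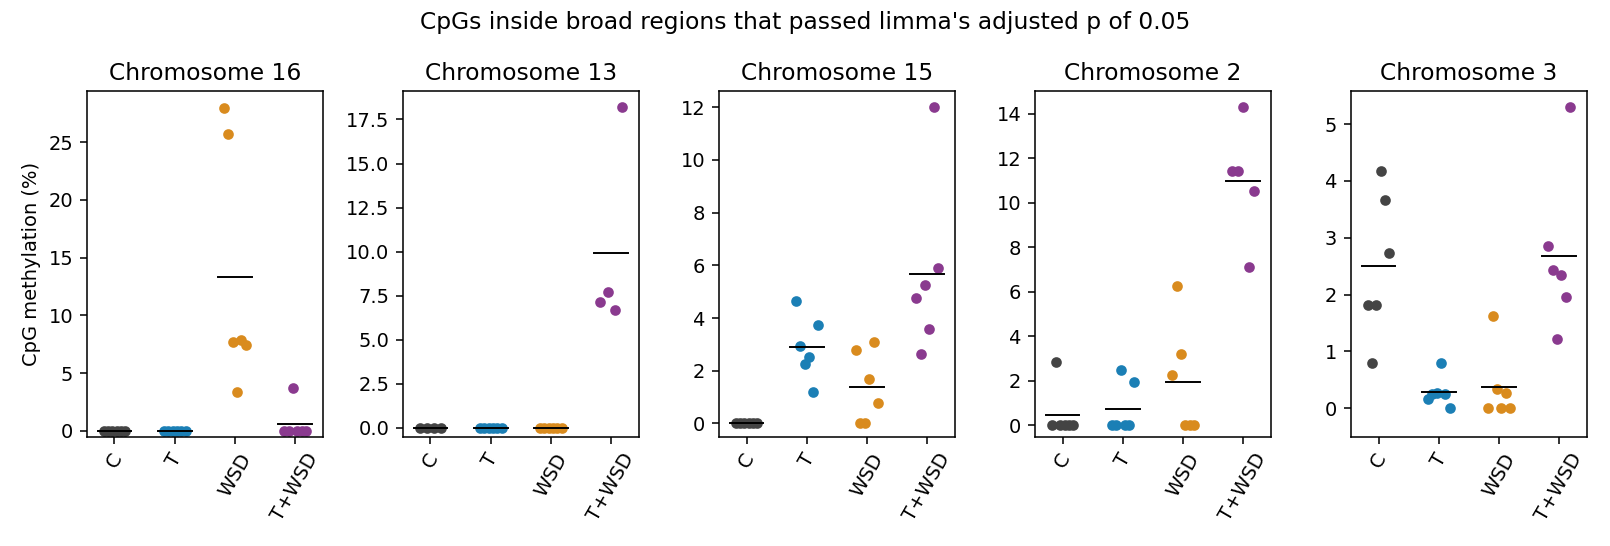
Methylation (%) of the 5 CpGs inside broad regions that passed limma's test for WSD, T+WSD or the interaction, 1 panel per CpG with its own axis, by group. Points are animals with a value and lines are group means. The chromosome 16 CpG has values from 3.33% to 28.0% in WSD, and the chromosome 3 CpG has low means of 0.288% and 0.370% in T and WSD.

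In some regions single animals lay far from all others of their group. The SD over the 24 animals had a median of 0.765 points per region and ran from 0.171 to 11.3 points, and in 33 regions or 3.96% it was over 3 points. In 31 regions the highest animal was at least 10 points above the median animal. In 24 of these the highest animal was C 1, T 13, WSD 20 or T+WSD 8, and in 17 all of these 4 were above every other animal. The 24 regions were picked for high values in these animals, and their values are a description.

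The region with the largest SD was chr19:35088001-35091000 (49 CpGs). C 1 was at 24.8%, T 13 at 32.8%, WSD 20 at 36.6% and T+WSD 8 at 32.1%. WSD 19 followed at 17.2%, and the other 19 animals lay between 0.688% and 8.22%. The high values were spread over many CpGs. C 1 was above every other C animal at 36 of 49 CpGs, T 13 above the other T animals at 36 of 46, WSD 20 above the other WSD animals at 30 of 47 and T+WSD 8 above the other T+WSD animals at 37 of 49.

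The same 4 animals were the highest in other regions, in differing order. In chr4:143845001-143848000 (64 CpGs) C 1, T 13, WSD 20 and T+WSD 8 were at 19.6%, 21.7%, 24.1% and 25.2%, followed by T 16 at 10.2%. In chr11:89188001-89191000 they were at 15.8%, 19.9%, 17.4% and 23.1%, and no other animal exceeded 5.42%. In chr1:25529001-25532000 (53 CpGs) they were at 15.6%, 13.4%, 16.5% and 16.7%, and all others were under 1.87%. The 4 animals came from 4 different treatments. In the order C, T, WSD, T+WSD the group means were 3.52%, 3.12%, 3.42% and 3.37% in the last region, 3.08%, 4.36%, 4.64% and 5.20% in the chromosome 11 region and 6.41%, 9.77%, 10.4% and 6.60% in chr19:35088001-35091000. In some regions the 4 were joined by further animals. In chr1:33311001-33314000 (52 CpGs) they were at 15.7%, 21.1%, 23.9% and 26.9% and T 16 and WSD 19 at 18.9% and 15.3%. In chr11:28986001-28989000 WSD 20 stood out alone at 34.5%, with the other 3 between 11.1% and 14.8%.

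**Figure D5:**
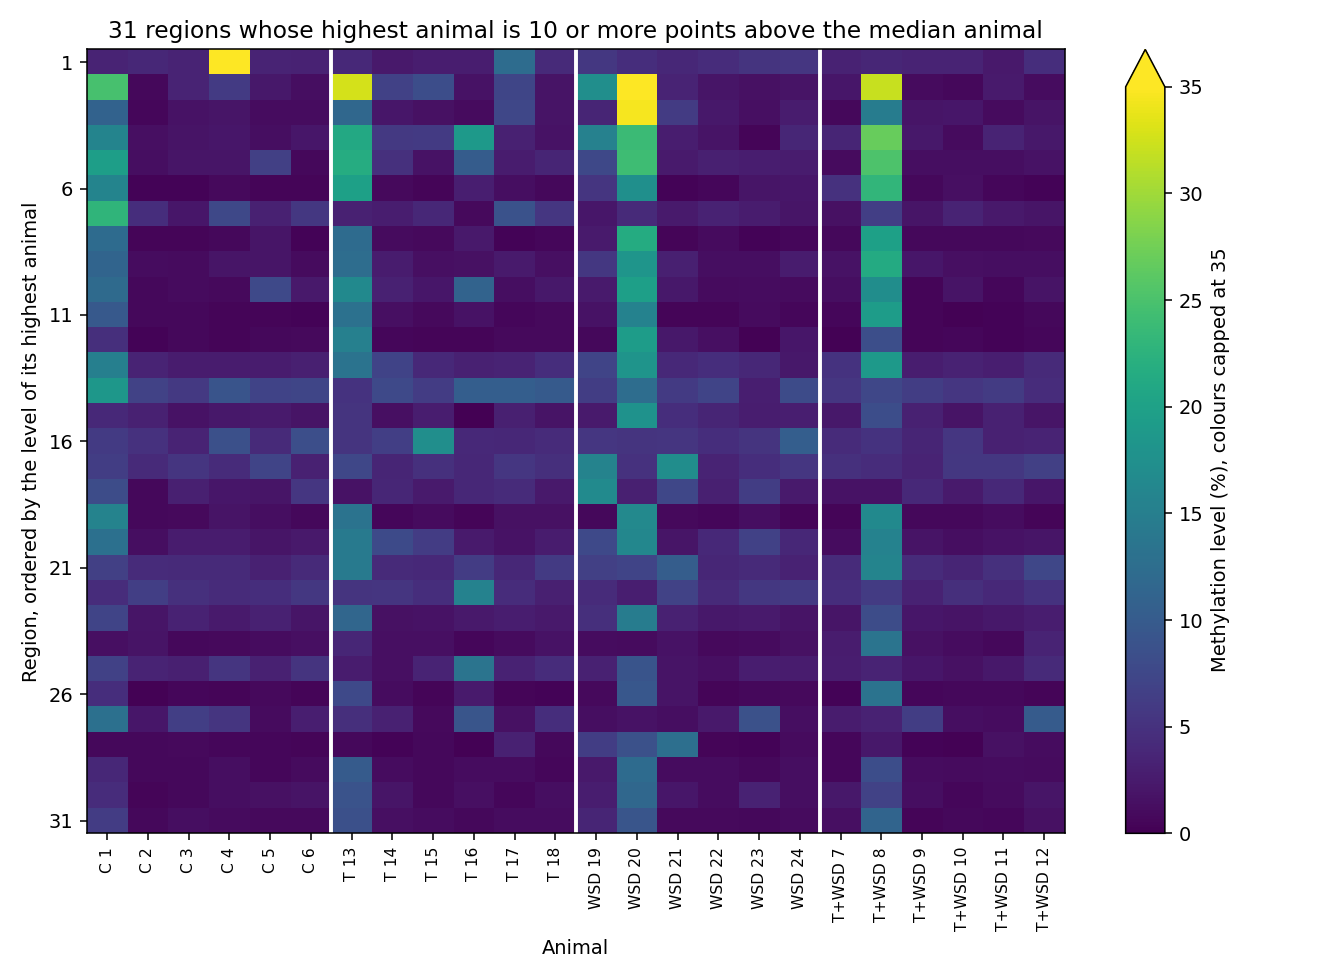
Methylation level (%, colour, capped at 35) of the 31 broad regions whose highest animal was at least 10 points above the median animal, 1 row per region and 1 column per animal, with white lines between groups. C 1, T 13, WSD 20 and T+WSD 8 form bright columns, and the first row is bright in C 4, at 45.2%.

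The deviations of the animals were also compared pair by pair, as a description, since the 4 animals were picked from the same regions. Each animal's deviation from the median of the other animals of its group was correlated across the 834 regions with that of each animal of another group. There were 216 such pairs in all. The 6 pairs among C 1, T 13, WSD 20 and T+WSD 8 had r from 0.644 to 0.752. The other pairs ran from −0.177 to 0.363 with a median of −0.0091, and the next pairs down were C 4 with T 17 at 0.363 and C 1 with WSD 19 at 0.336. Without the 31 regions picked for a high animal, a choice made after seeing the data, 803 regions were left. Here each deviation was from the median of the whole group, the animal included, so these r are not the same measure as those above. The 6 pairs then had r from 0.253 to 0.366 and the other pairs from −0.149 to 0.232. These r are across regions measured in the same animals, with regions sharing each animal's library, and are given without a test.

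The 4 animals held the 4 highest values in 33 of 834 broad regions (3.96%), in 159 of the 14680 narrow windows with a value in every animal (1.08%) and in 52 of 55300 other windows (0.094%). They held the 4 lowest values in 0 broad regions, 0 narrow windows and 3 other windows. The set of 4 was noticed in the broad regions, so these shares are a description as well. Missing values in the regions were 1.22%, 3.24%, 2.60% and 1.91% in the 4 animals and ran from 0.712% to 16% in the others. On the mitochondrial genome their levels were 1.59%, 1.93%, 2.41% and 1.31%, and those of 17 other animals ran from 0.590% to 2.58%. C 3, C 5 and T+WSD 9 were at 19.1%, 10.7% and 28.0% there, over only 33, 29 and 38 mitochondrial CpGs.

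Other animals also had high values of their own. In chr4:116522001-116525000 (63 CpGs) C 4 was at 45.2% and T 17 at 12.3%, and the other 22 animals lay between 2.37% and 5.68%. With C 4 at that level the C mean of this region was 10.5% ± 17 (SD, n = 6), whereas the means of the other groups were 4.75%, 4.91% and 3.51%. In chr6:132754001-132757000 T 15 was at 17.3% with a median animal at 5.20%. In chr12:104554001-104557000 and chr4:1264001-1267000 T 16 was highest, at 15.6% and 13.4%, and T 16 also had the most missing values in the regions, 16%. In chr7:38662001-38665000 WSD 21 and WSD 19 were at 17.2% and 15.7%, and no other animal exceeded 7.49%. In chr14:4982001-4988000, a region of 6 kb, C 2 was at 5.25% and all others were at or below 2.23%.

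Without C 1, T 13, WSD 20 and T+WSD 8, limma's moderated fit, written out in Python, again called 0 regions for T, WSD, T+WSD, the interaction and any difference. Over all features it then called 2, 4, 0, 12 and 6, so the 0 among the regions is no result about them. WSD was then higher than C in 562 of 834 regions, T+WSD in 475 and T in 381. Leaving these animals out thus lowered the count by more for T+WSD than for WSD or T. With all animals, 46.0% of all features were higher than C in WSD, 41.0% in T+WSD and 40.6% in T.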

How the data were processed

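RRBS libraries of 24 omental biopsies were analysed. Per the submitters' processing notes, reads were checked with FastQC 0.11.5, trimmed with Trim Galore 0.4.2 and aligned and called with Bismark 0.16.1, and limma was used. The authors deposited 1 table of percent methylation per CpG (841143 CpGs, 24 animals, rheMac8), filtered on coverage before deposit. Read counts per CpG are not used here, so no counting interval could be given and the number of animals limits the precision.

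CpGs were placed in 1 kb windows. Runs of at least 3 consecutive windows on chromosomes 1 to 20, each with at least 3 CpGs and a mean under 10%, were the broad regions. The members and the lists were chosen with earlier results of these data known. A region's value in an animal was the mean of its CpGs, missing values left out.

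Regions and all other windows with at least 3 CpGs (98969 features), and separately all CpGs, were fitted on the arcsine of the square root of the methylation fraction with limma 3.58.1 in R 4.3.3, using all 24 animals and no covariate. The p values were adjusted by Benjamini-Hochberg over all features or all CpGs and called under 0.05, with no minimum difference. Tests were two-sided. Tables and alternatives were made in Python 3.11.15 with numpy 2.4.6 and pandas 2.3.3, and the fit was tested on simulated data. Alternatives that needed a new fit, other than the prior following the mean, used limma's moderated fit written out in Python. A limma adjusted p given for such an alternative comes from that written-out fit. Biopsies came from separate animals, and animal numbers differ between groups, so none were paired.

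The text names the 8 longest regions, for each contrast the 2 regions with the smallest p in each direction, the 3 with the largest SD between animals, and the 3 with the highest and the lowest mean. All other regions and all single CpGs that are named were chosen after their values were seen. Alternatives were another scale, a smaller fit, a prior following the mean, complete CpGs, centring, single windows, other thresholds, other region rules and leaving out each animal. Lists of genes were not used, since regions were not assigned to genes.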

Additional observations from a re-analysis of the deposited data

Results flagged for a closer look

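In each group of 4 to 6 animals with a value, the highest and the lowest animal were compared with the rest by Dixon's ratio of gap to range, for the mean level, the regions named by rule and the called CpGs. Of 140 groups looked at 33 stood apart, and 19 of the 33 were C 1, T 13, WSD 20 or T+WSD 8. Chance flags about 1 in 20 groups of unselected values, but many of these regions and CpGs, and the 4 animals, were picked by their values, so the count is a description.

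For the mean level over the regions these were C 1 (2.57%), T 13 (2.90%) and T+WSD 8 (3.15%). In chr19:35088001-35091000 they were C 1 (24.8%), T 13 (32.8%) and T+WSD 8 (32.1%), and in chr1:33311001-33314000 C 1 (15.7%) and T+WSD 8 (26.9%). In chr10:53500001-53506000 the highest animal of every group stood apart, C 1 at 6.97%, T 13 at 6.55%, WSD 20 at 8.69% and T+WSD 8 at 9.62%. In chr19:25275001-25282000 T 13 (11.6%) and T+WSD 8 (7.37%) did. T 13 also stood apart in chr5:1409001-1415000 (5.07%), chr20:666001-669000 (3.29%) and chr9:93552001-93555000 (3.64%), and C 1 in chr7:81917001-81921000 (3.18%), where T 17 did so at 1.70%.

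Other animals stood apart in further regions. C 4 was at 45.2% and T 17 at 12.3% in chr4:116522001-116525000. C 2 was at 5.25% in chr14:4982001-4988000 and at 5.19% in chr17:7477001-7483000. WSD 21 was at 10.2% in chr2:146888001-146891000, T+WSD 9 at 14.7% in chr1:39069001-39072000, T+WSD 11 at 0.763% in chr4:43029001-43032000 and C 6 at 2.02% in chr17:94687001-94690000.

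Among the called CpGs, T+WSD 9 was at 3.70% at 18349990 of chromosome 16, T+WSD 10 at 18.18% at 75459080 of chromosome 13, T+WSD 11 at 12% at 94260884 of chromosome 15 and C 2 at 2.86% at 181304063 of chromosome 2. At 13674995 of chromosome 3, T 16 was at 0.80% and WSD 20 at 1.62%.

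At 2 CpGs limma's interaction term passed for T minus C on chow against T+WSD minus WSD on the diet, by 9.92 points at 75459080 of chromosome 13 (adjusted p = 0.00121) and by 4.53 points at 13674995 of chromosome 3 (adjusted p = 0.0138). Both calls were lost without transformation (limma adjusted p = 0.415 and 0.142), and the interaction is the same contrast as that between the 2 number series.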

How the results depend on the processing

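The count of 0 called regions held in the settings tried for T, WSD, the interaction and any difference among the groups. For T+WSD it became 1 with CpGs complete in all animals, where 832 regions were left and 499 of all features were called, against 221 otherwise. The 16 results of regions named for a contrast kept their direction in all 476 values under the alternatives, with adjusted p of 0.121 or more. Part of this was fixed in advance, since the prior following the mean and leaving out an animal outside the contrast do not change a difference. The regions were also picked for small p in the same data, so the count is a description. Leaving out 1 animal at a time left 0 called regions in all 5 tests, while the calls over all features ran from 2 to 10 for T, 2 to 9 for WSD, 10 to 346 for T+WSD, 13 to 20 for the interaction and 6 to 28 for any difference. No paired analysis was possible because the animal numbers differ between the groups.

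Called CpGs moved more. Without transformation they were 0 for WSD, 1 for T+WSD and 0 for the interaction (of 61, 83 and 127 over all CpGs). With only the groups compared they were 4 for T and 2 for WSD (of 109 and 124, against 50 and 52 with all groups). With complete CpGs they were 1 for T+WSD and 1 for the interaction (of 74 and 97). At an adjusted p under 0.1 they were 1 for T, 2 for WSD and 5 for T+WSD (of 71, 90 and 251), and with a difference over 10 points 1 for T+WSD and 0 for the interaction (of 58 and 146). Leaving out C 1, T 13, WSD 20 and T+WSD 8 was an alternative chosen after seeing the data. Called CpGs were then 1 for T, 1 for WSD, 4 for T+WSD and 6 for the interaction (of 31, 33, 17 and 122). Leaving out 1 animal gave 0 to 3 for T, 1 to 7 for WSD, 1 to 4 for T+WSD and 2 to 8 for the interaction (of 37 to 56, 40 to 81, 5 to 94 and 130 to 166 over all CpGs), with the highest counts for WSD and the interaction without WSD 23. The cause was not tested.

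With a level limit of 5% (589 regions) the group means were 1.41% for C, 1.43% for T, 1.67% for WSD and 1.55% for T+WSD. With runs of 4 or more windows (164 regions) they were 2.60% in C, 2.59% in T, 3.01% in WSD and, within 1 SD of its main value, 2.73% in T+WSD. Leaving out 1 animal gave 2.08% to 2.19% for C, 2.04% to 2.23% for T, 2.35% to 2.55% for WSD and 2.15% to 2.38% for T+WSD. The median difference from C then ran from −0.105 to 0.0452 points for T, changing sign, from 0.138 to 0.264 for WSD and from 0.02 to 0.194 for T+WSD.

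The median of all features was lower than in C by 1.71, 1.13 and 1.83 points in T, WSD and T+WSD. Centring each animal on its median moved the median difference over the regions to 0.485 points for T, 0.549 for WSD and 0.669 for T+WSD, with 91.4%, 91.7% and 94.5% of regions higher than in C. The uncentred shares were 48.6%, 70.1% and 64.3%, and the median for T changes sign. Centring shifts all features of an animal together. Regions near 0 thus move up in animals with a low median of all features and down in animals with a high one. This says nothing about the regions themselves. The exact depth behind the values is unknown.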
